A study of Mus musculus with 3 samples.

Results

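This account follows 48 mouse genes of fatty acid metabolism and of the fat cell, out of 18193 genes named on an Affymetrix mouse genome array. They were taken by name, as every probe set (a group of short probes against 1 transcript) whose only annotated gene symbol is on the list, and were grouped into synthesis and desaturation, storage with uptake, oxidation, and adipocyte regulators. A probe set was found for 46 of the 48, and Acsl1 and Plin1 had none in the name table used here. RNA came from C3H10T1/2, a mouse mesenchymal cell line that can be turned into fat, cartilage or bone cells, from C3H10T1/2 carrying a retroviral vector for the fluorescent protein Venus, and from C3H10T1/2 carrying a vector for Venus-Mkx, where Mkx is Mohawk, a homeobox factor of tendon. The labels give growth medium with serum for all 3 cultures and no fat-inducing agent. The transduced cells came from virus-containing medium with puromycin, and the sources used here do not say whether each was a pool or a clone. The study asked which mesenchymal lineages Mkx favours, fat among them.

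Each condition was read on 1 array, so no difference below has a replicate check and no p-value was computed. All values are log2 probe set values as deposited. The Mkx probe set read 6.88 and 7.43 on the C3H10T1/2 and Venus arrays and 2.71 on the Venus-Mkx array, which goes against the label. It is not known here if the vector carries the stretch of Mkx that these probes read. The array is therefore named by its label throughout. Values under 4.34, the median of the whole table and called the floor here, were treated as not distinct from background. No detection calls were used, so this was not tested. The 11169 genes with at least 1 value at or above the floor were called measured. Of the genes followed here, 39 were measured. Cidec, Cd36, Fabp3, Pck1, Klf15, Adipoq and Lep were under the floor on all 3 arrays. Higher and lower below mean that the array labelled Venus-Mkx was at least 2-fold above, or below, both controls. In RNA from a whole culture, fewer cells of a type and less RNA per cell cannot be told apart.

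Cells make fatty acids from citrate in the cytosol, lengthen them and insert double bonds, and then join them to glycerol as triglyceride, which is kept in lipid droplets. Lipases release the fatty acids again, binding proteins carry them, and mitochondria burn them after transfer across the membrane by carnitine. In the fat cell lineage, Cebpb and Cebpd come early, Pparg and Cebpa follow, and mature cells then fill with lipid and secrete adiponectin and leptin.

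The array labelled Venus-Mkx was not uniformly higher or lower for these genes. Of 39 measured members, 7 were higher than both controls, 7 were lower and 25 were neither. Among all measured genes, 6.82% were higher and 5.34% lower, whereas 17.9% of the members stood in each class. The members were chosen with earlier results of these data known, so these shares are a description and not a test. Of 77 other measured genes of the same roles, 5.19% were higher and 7.79% lower. With values under the floor set to the floor, the members again numbered 7 and 7, against 6.22% and 4.97% of all measured genes. The higher genes were Lpl, Cebpb, Plin4, Lipe, Angptl4, Gpam and Mgll. Of these, Lipe was measured only through the array labelled Venus-Mkx. The lower genes were Fabp4, Scd1, Fads1, Elovl6, Fads2, Fabp5 and Cpt1a. No synthesis gene was higher and 4 of 11 were lower, whereas 6 of 19 storage and uptake genes were higher and 2 were lower. Between the 2 control arrays, none of the 39 was 2-fold apart. Among all measured genes, 1.49% were higher and 0.555% lower in Venus, so none among 39 is near that share. The median size of the difference between the controls was 0.14 for the members and 0.10 for all measured genes. Among the members, the largest difference between the controls was 0.77. The median size of the difference from Venus on the array labelled Venus-Mkx was 0.92 for the members and 0.28 for all measured genes. The signed median over the members, 0.063, was near the 0.00 of all genes.

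**Figure D1:**
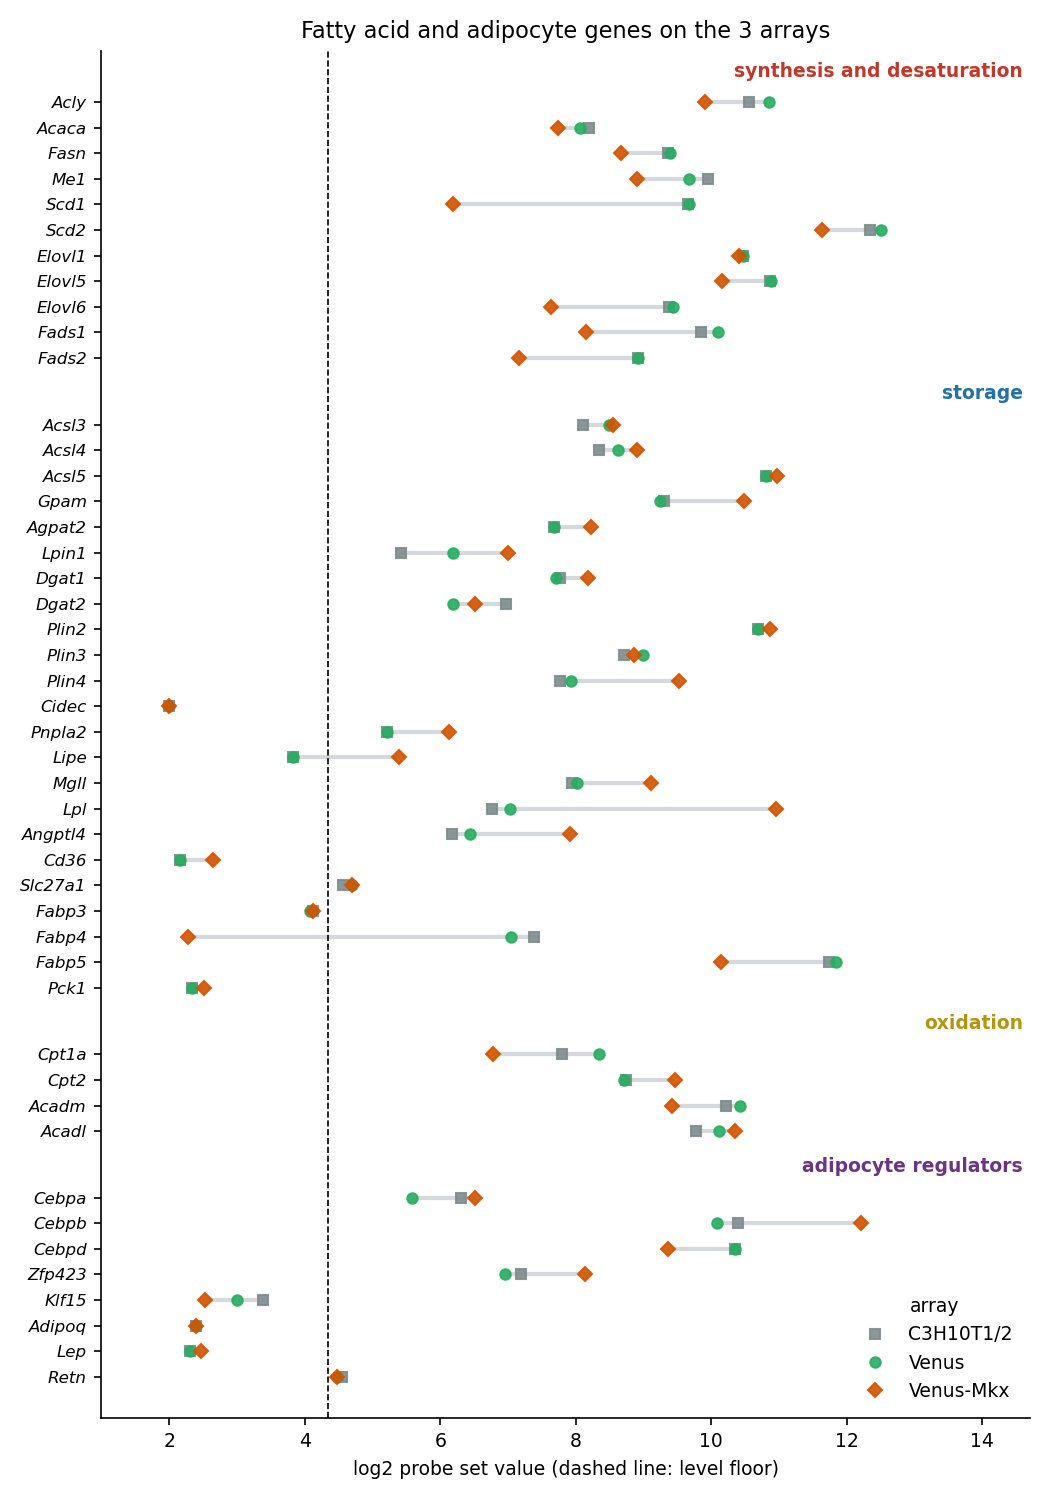
Log2 probe set values (horizontal axis) of the 46 members with a probe set, on the C3H10T1/2 (squares), Venus (circles) and Venus-Mkx (diamonds) arrays, 1 array per condition, with genes grouped by role. The dashed line is the floor at 4.34, and diamonds lie left of both controls for every synthesis gene and right of both for 14 of 19 measured storage genes.

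Promoter sequence was read for genes on either side of the controls, from RefSeq on GRCm38.p6, which held 1 or more start sites for 38 of the 48 members. Scd1, Scd2, Fads1, Fabp4, Fabp5, Lpl, Angptl4, Cebpd, Dgat1 and Dgat2 had no entry. The 100 bases before the start site are shown for Elovl6 and Fads2, which were lower, and for Gpam and Plin4, which were higher, 5′ to 3′ on the strand of the gene. Capitals mark CCAAT or its reverse complement ATTGG, the box bound by the general factor NF-Y. The positions are chr3:129532286-129532385 (+) for Elovl6, chr19:10101504-10101603 (−) for Fads2, chr19:55127239-55127338 (−) for the first Gpam start site and chr17:56109783-56109882 (−) for Plin4.
Elovl6: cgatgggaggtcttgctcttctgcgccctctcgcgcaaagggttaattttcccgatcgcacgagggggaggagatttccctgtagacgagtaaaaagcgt
Fads2: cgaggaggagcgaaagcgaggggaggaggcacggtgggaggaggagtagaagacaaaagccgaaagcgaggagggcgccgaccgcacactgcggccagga
Gpam: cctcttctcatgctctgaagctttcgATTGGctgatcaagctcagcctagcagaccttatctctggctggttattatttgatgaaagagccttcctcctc
Plin4: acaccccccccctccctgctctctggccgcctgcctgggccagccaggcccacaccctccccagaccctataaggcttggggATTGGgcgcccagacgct
The box began at position −74 in Gpam and −18 in Plin4, counted back from the start site, and the other Gpam start site held none within 250 bases. Over the 250 bases before the start site, and on both strands, the box was in 17 of 48 promoters of the members and in 33.8% of all 32851 promoters. It was in 1 of 3 promoters of lower genes, that of Cpt1a, which is not shown. Of 8 promoters of higher genes it was in 2, those shown for Gpam and Plin4. The sequences shown therefore do not stand for the lower and higher genes as classes. The sterol regulatory element TCACNCCAC was in none of the 11 promoters of lower and higher genes, against 1.05% of all promoters. The E-box CACGTG was in 2 of the 8, those of Lipe and Mgll, against 6.02% of all. The C/EBP motif TTGCNNAA, found in 9.56% of all promoters, and the PPAR element, a direct repeat of AGGTCA with 1 base between the copies, found in 0.033%, were in none of the 11. A match or its absence describes these letters in this window only.

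On the array labelled Venus-Mkx, all 11 members of the synthesis group were below both controls, with Elovl1 nearest to Venus at −0.056. Of all measured genes, 40.04% were below both. The median difference of the group was −0.88 from Venus and −0.71 from C3H10T1/2. By class, the median from Venus was −1.85 for desaturases, which insert double bonds, −0.75 for enzymes that build the chain and −0.72 for elongases. The elongase Elovl6 was nevertheless further below Venus than the desaturases Fads2 and Scd2.

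Of the desaturase genes, 3 of 4 were lower. Scd1, the stearoyl-CoA desaturase that makes oleate, read 9.66 in C3H10T1/2, 9.67 with Venus and 6.19 with Venus-Mkx. The controls were nearly equal, and the array labelled Venus-Mkx was 11.2-fold below Venus and 11.1-fold below C3H10T1/2. The other Scd1 probe set read 6.88, 7.32 and 4.23, so its last value was under the floor. Fads1 and Fads2, the Δ5 and Δ6 desaturases of polyunsaturated fatty acids, were lower by like amounts. Fads1 read 9.85, 10.10 and 8.16 in the same order, which is 3.86-fold below Venus and 3.23-fold below C3H10T1/2. Fads2 read 8.91 on both controls and 7.16 in Venus-Mkx, 3.36-fold below each. All 3 probe sets of Fads2 and both of Fads1 were at least 2-fold lower. Scd2, a second stearoyl-CoA desaturase, was counted as neither on its brightest probe set, with 12.34, 12.51 and 11.63. Levels of that probe set are near the top of the scale. A dimmer Scd2 probe set read 6.20, 6.55 and 4.70, differences of −1.85 from Venus and −1.49 from C3H10T1/2, and the mean of all its probe sets was past 2-fold.

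Elongases differed among themselves. Elovl6, which lengthens palmitate to stearate, read 9.37, 9.44 and 7.64, and was 3.47-fold below Venus and 3.32-fold below C3H10T1/2. Its second probe set went further, with 8.06, 8.41 and 6.04, whereas another read 4.87, 4.73 and 4.02, close to the floor on the controls and under it with Venus-Mkx. Elovl5, an elongase of polyunsaturated fatty acids, read 10.87, 10.89 and 10.16, less than 2-fold below either control. Elovl1, which acts on very long chains, read 10.47, 10.47 and 10.41, and 2 of its other probe sets held an equal value on all 3 arrays. Of all probe sets as deposited, 24.6% are equal on all 3 arrays, so a difference of exactly 0 is how the table reads and gives no bound on a difference.

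The enzymes that build the carbon chain were below both controls without reaching 2-fold from both. Acly, which makes cytosolic acetyl-CoA from citrate, read 10.56, 10.84 and 9.91. Fasn, the fatty acid synthase, read 9.37, 9.39 and 8.66, a difference of −0.73 from Venus. Acaca, the acetyl-CoA carboxylase of the committed step, was closest to the controls of these enzymes, with 8.20, 8.06 and 7.74. Me1, the malic enzyme that supplies NADPH, read 9.95, 9.68 and 8.90, past 2-fold against C3H10T1/2 only, and its other probe set differed from Venus by −0.12.

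The 3 Fads genes lie next to each other on chromosome 19 in the reference gene order, as Fads3, Fads2 and Fads1. Fads3, which was not among the members, read 10.86, 10.26 and 9.22 and was also lower, with log2 differences of −1.04 against Venus and −1.64 against C3H10T1/2. The Scd genes form another cluster on the same chromosome, where Scd1 and Scd2 were measured, Scd3 was under the floor on all 3 arrays and Scd4 had no probe set in the table used. Among 15 other measured synthesis genes, such as those of the elongation cycle and of acetyl-CoA supply, Fads3 was the lower gene (6.67%) and none was higher. The shares of all measured genes were 5.34% lower and 6.82% higher. Of the 15 genes, 5 were below both controls and 4 above both, against 40.04% and 37.7% of all measured genes. Being below both controls was thus not shared by the wider list. The median difference of the 15 genes from Venus was −0.025. Of these, Hacd1, a dehydratase of elongation, differed from the nearer control by −0.82, and Acss2, an acetyl-CoA synthetase, by −0.66. Hsd17b12, the ketoreductase of elongation, differed by −0.54, whereas Hacd2, another dehydratase, differed by 0.52. Srebf1, which encodes a transcription factor that drives fatty acid synthesis genes, read 8.49, 8.30 and 8.46, and so lay between the controls.

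**Figure D2:**
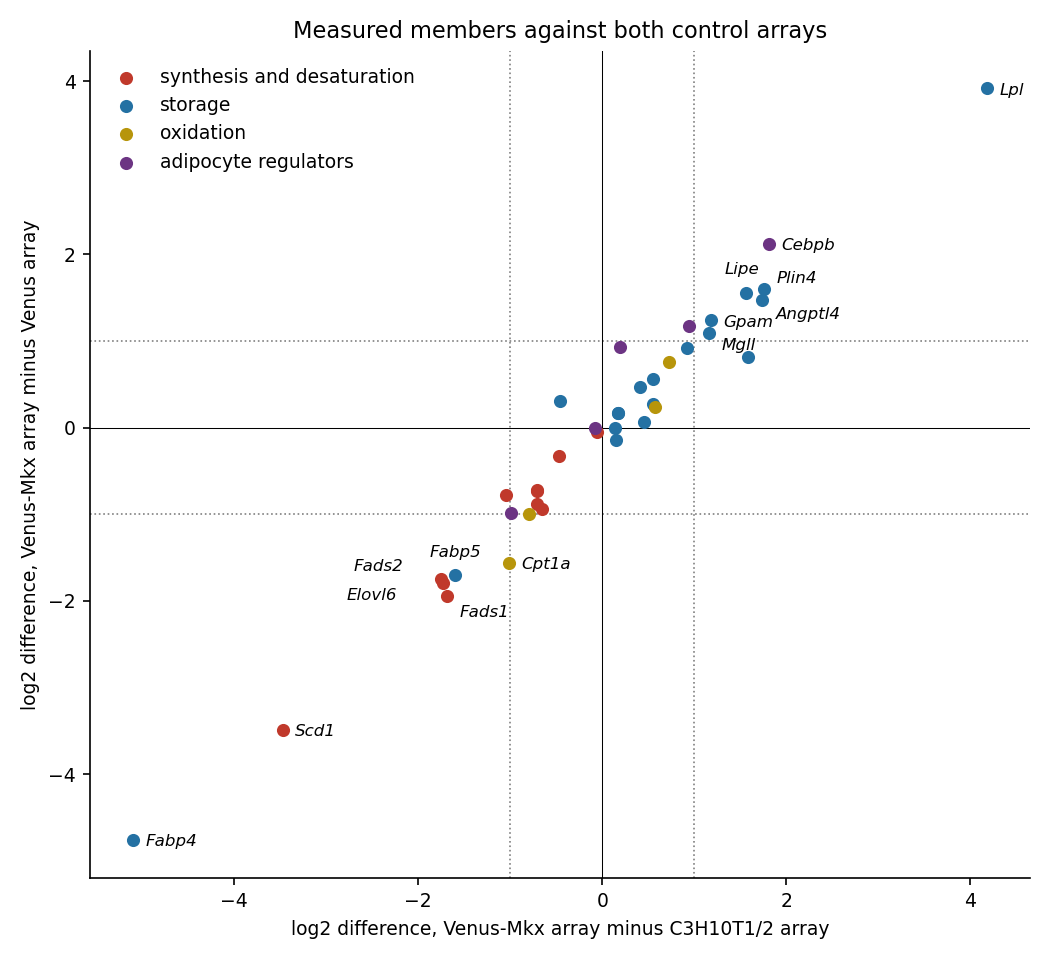
Log2 difference of the array labelled Venus-Mkx from the Venus array (vertical) and from the C3H10T1/2 array (horizontal) for the 39 measured members, 1 array per condition, coloured by role. Dotted lines mark 2-fold, the 14 named genes are past 2-fold against both controls, and the points lie near the diagonal because the controls are close to each other.

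The storage and uptake members were mostly above the controls, with Lpl furthest. Of 19 measured, 14 were above both controls, against 37.7% of all measured genes, and the median difference was 0.47 from Venus and 0.56 from C3H10T1/2. Fabp4 and Fabp5 ran the other way.

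Lpl, the lipoprotein lipase that frees fatty acids from circulating triglyceride, read 6.77 in C3H10T1/2, 7.03 with Venus and 10.95 with Venus-Mkx. It was 15.1-fold above Venus and 18.1-fold above C3H10T1/2, the largest difference upward among the members. A second Lpl probe set read 7.70 with Venus-Mkx and was under the floor on both controls, so its fold is a limit only. Angptl4, which encodes a secreted inhibitor of lipoprotein lipase, read 6.18, 6.44 and 7.91, and so was higher together with its target, 2.78-fold from Venus and 3.32-fold from C3H10T1/2. Its other probe set was under the floor on all 3 arrays, and without probe sets marked _s_at no measured value was left for it. The fatty acid transporter genes among the members, Cd36 and Slc27a1, gave little signal. Cd36 was under the floor on all 3 arrays, with values of 2.16, 2.16 and 2.65, and Slc27a1 was just above it with 4.57, 4.70 and 4.70.

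The fatty acid binding proteins, which carry fatty acids through the cytosol, gave 2 lower genes. Fabp4, the form typical of fat cells and macrophages, read 7.38 and 7.04 on the controls and 2.28 in Venus-Mkx, which is under the floor. Its fold is therefore a limit, at least 6.51-fold below Venus and at least 8.20-fold below C3H10T1/2. A second Fabp4 probe set read 5.27, 5.31 and 2.09, and 2 others were under the floor on all 3 arrays. Fabp5, the epidermal form, was far above the floor, with 11.74, 11.85 and 10.14, and was 3.27-fold below Venus and 3.04-fold below C3H10T1/2. Both of its probe sets were past 2-fold. Fabp3, the heart form, was under the floor throughout. Fabp5, Pmp2, Fabp9, Fabp4 and Fabp12 follow each other on chromosome 3 in the reference gene order. Pmp2, a binding protein of myelin that was not among the members, read 6.06, 4.81 and 3.05, whereas Fabp9 and Fabp12 were under the floor on all 3 arrays.

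Enzymes that join fatty acids to glycerol were slightly to moderately above Venus. Gpam, which encodes the mitochondrial acyltransferase of the first step, read 9.30, 9.24 and 10.48, 2.36-fold above Venus and 2.26-fold above C3H10T1/2. Its other probe set was under the floor. Agpat2, the acyltransferase of the next step, read 7.68, 7.67 and 8.23. Lpin1, a phosphatidate phosphatase, already differed between the controls, with 5.42 in C3H10T1/2 and 6.19 with Venus, and Venus-Mkx was above these by 1.59 and 0.81 on the log2 scale, past 2-fold against C3H10T1/2 only. The acyltransferases of the last step did not reach 2-fold: Dgat1 read 7.77, 7.71 and 8.18, and Dgat2 read 6.97, 6.20 and 6.51, between the controls. Pck1, which feeds glycerol synthesis in fat, was under the floor. The acyl-CoA synthetases that activate fatty acids were close to the controls, with differences from Venus of 0.063 for Acsl3, 0.27 for Acsl4 and 0.17 for Acsl5.

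Of the proteins that coat lipid droplets, Plin4 stood out. It read 7.77, 7.93 and 9.53, 3.04-fold above Venus and 3.39-fold above C3H10T1/2. Plin2, the coat protein found in most cell types, was nearly level, with 10.69 on both controls and 10.87 in Venus-Mkx. Plin3, another widespread coat protein, read 8.86 with Venus-Mkx, between the controls, with differences of 0.15 from C3H10T1/2 and −0.14 from Venus. Cidec, which enlarges droplets in fat cells, read 2.00 on all 3 arrays.

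The 3 lipases that take triglyceride apart were all above both controls. Pnpla2, the triglyceride lipase of the first step, read 5.21 on both controls and 6.13 in Venus-Mkx, 1.90-fold and so not counted. Lipe, the hormone-sensitive lipase of the second, read 3.82 on both controls, under the floor, and 5.39 in Venus-Mkx, so it was at least 2.06-fold higher. Mgll, the monoglyceride lipase of the last, read 7.94, 8.02 and 9.11, and its 3 measured probe sets differed from Venus by 1.04 to 1.16. The levels of Lipe and Pnpla2 lie near the floor, where precision is least. With the floor at the 75th percentile of all values, Lipe was no longer measured.

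Beyond the members, 21 other genes of storage and uptake were measured. Of these, 1 was higher and 1 was lower (4.76% each), against 6.82% and 5.34% of all measured genes. Unlike the members, 7 of the 21 were above both controls and 10 below both, against 37.7% and 40.04% of all measured genes. The median difference of the 21 genes from Venus was −0.069. The lower gene was G0s2, which encodes an inhibitor of the lipase made by Pnpla2, with 7.90, 7.60 and 2.99. Its last value is under the floor, which makes the difference at least 9.56-fold from Venus and at least 11.8-fold from C3H10T1/2. Abhd5, whose product activates the same lipase, read 7.74, 7.94 and 7.60. The higher gene was Bscl2, which encodes seipin, a protein of droplet formation, with 8.63, 8.76 and 10.14. Agpat4, an acyltransferase gene, was past 2-fold below Venus only, by −1.31, and differed from C3H10T1/2 by −0.84. Cavin1, a caveolar coat gene, and Agpat5, an acyltransferase gene, differed from the nearer control by −0.50 and −0.37.

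**Figure D3:**
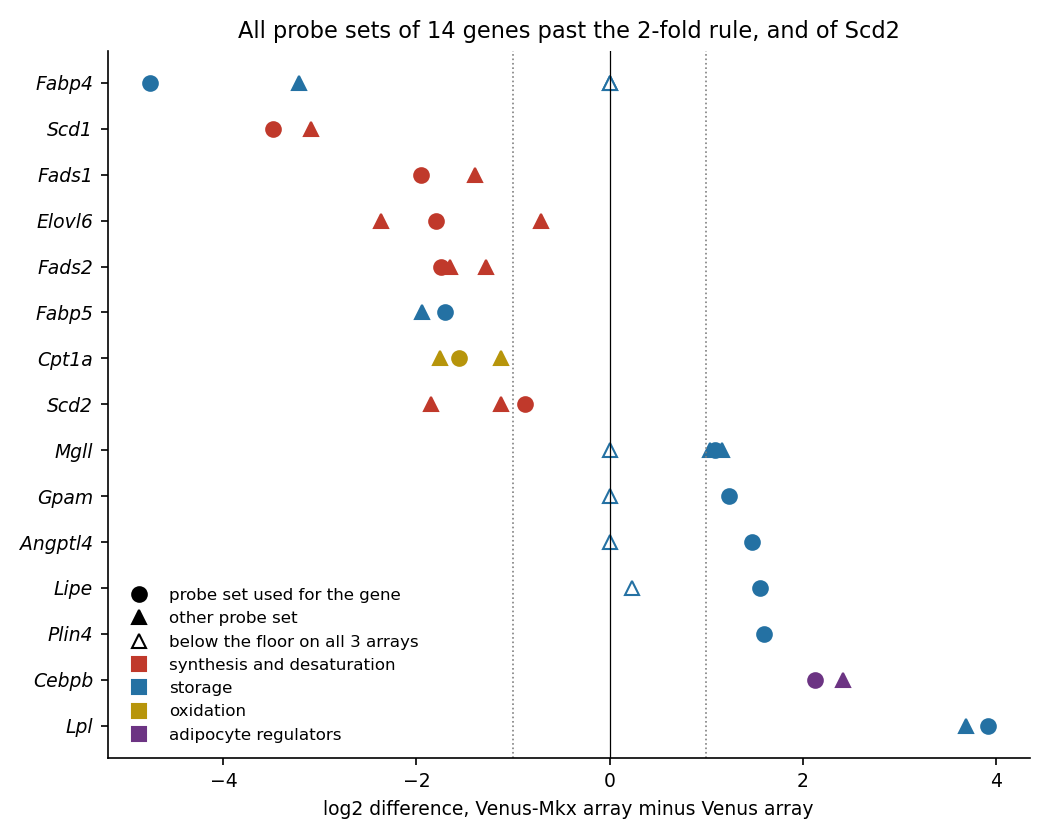
Log2 difference of the array labelled Venus-Mkx from Venus (horizontal axis) for each probe set of the 14 members past 2-fold and of Scd2, 1 array per condition. Circles are the probe sets used, triangles the others, and open symbols are under the floor on all 3 arrays, which are the ones that read near 0, with single values under the floor plotted as deposited. Every filled symbol of a gene lies on the same side of 0.

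Genes of mitochondrial oxidation differed in both directions, with a median of −0.38 from Venus and −0.11 from C3H10T1/2 over the 4 members. Cpt1a, which encodes the carnitine acyltransferase that admits fatty acids to mitochondria, read 7.80 in C3H10T1/2, 8.34 with Venus and 6.78 with Venus-Mkx. It was 2.95-fold below Venus but 2.02-fold below C3H10T1/2, just past the 2-fold rule. A second Cpt1a probe set read 7.74, 8.23 and 6.48, and the remaining one differed from C3H10T1/2 by −0.76. Cpt2, the acyltransferase of the inner membrane, ran the other way, with 8.74, 8.71 and 9.46. Acadm and Acadl encode the medium-chain and long-chain acyl-CoA dehydrogenases. Acadm read 10.22, 10.42 and 9.42, below both controls, and Acadl read 9.78, 10.11 and 10.35, above both. Of 18 other measured oxidation genes, none was 2-fold from both controls, and 10 were above both and 4 below both. By comparison, 6.82% of all measured genes were higher and 5.34% lower, with 37.7% above both controls and 40.04% below both. The median difference of the 18 genes was 0.18 from Venus and 0.18 from C3H10T1/2. Of these, Eci1, an enoyl-CoA isomerase, differed from the nearer control by 0.79 and Etfb, an electron transfer flavoprotein, by 0.77. Acadvl, Acads and Acaa1a, a very-long-chain and a short-chain dehydrogenase and a peroxisomal thiolase, differed by 0.62, 0.59 and 0.58.

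Among adipocyte regulators, Cebpb was higher and Cebpd lay below both controls without reaching 2-fold. The median difference of the 5 measured genes was 0.93 from Venus but 0.19 from C3H10T1/2. Cebpb, an early transcription factor of fat cell formation that also acts in inflammation, read 10.40, 10.08 and 12.21, 4.36-fold above Venus and 3.51-fold above C3H10T1/2. Its second probe set read 7.98, 7.47 and 9.89. Cebpd, its partner in the early phase, read 10.35, 10.35 and 9.37, differences of −0.98 and −0.99 that fall just short of 2-fold. Cebpa, which acts later, read 6.31, 5.58 and 6.51, and its difference was 0.93 from Venus but 0.19 from C3H10T1/2. Zfp423, a factor of preadipocyte commitment, read 7.19, 6.96 and 8.13, past 2-fold against Venus only. Klf15 was under the floor on all 3 arrays. Pparg, the main regulator of fat cell formation, had values of 7.59, 7.74 and 7.15, less than 2-fold below either control.

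The 3 adipokine genes among the members gave almost no signal. Adipoq, for adiponectin, read 2.40 on all 3 arrays, Lep, for leptin, read 2.31, 2.31 and 2.47, and Retn, for resistin, read 4.55, 4.47 and 4.47, just above the floor. Of 7 white fat cell markers, 5 had a probe set, and only Fabp4 and Retn were measured. All 5 brown fat cell markers were under the floor on all 3 arrays. All 8 mesenchymal markers with a probe set were measured, with means of 11.18, 11.32 and 11.54 on the C3H10T1/2, Venus and Venus-Mkx arrays. Adipoq, Lep and Cidec, which define mature fat cells, were thus under the floor on all 3 arrays, whereas Fabp4 was above it on both controls.

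Of 23 other measured regulators and products of the fat cell, 3 were higher (13.0%) and 4 were lower (17.4%). The shares of all measured genes were 6.82% and 5.34%. With values under the floor set to the floor, 2 of the 23 were higher, against 6.22% of all measured genes. Of the 3 higher genes, Ppargc1b and Ebf2 were measured only through the array labelled Venus-Mkx. The filter thus admitted them by the array where they are high. This list too was chosen with earlier results of these data known. Rarres2, which encodes the adipokine chemerin, read 5.66, 5.61 and 8.15, and was 5.78-fold above Venus and 5.59-fold above C3H10T1/2. Ppargc1b, a coactivator gene of mitochondrial metabolism, read 3.64, 3.94 and 5.47, at least 2.18-fold above both. Ebf2, a factor of brown preadipocytes, read 3.24, 3.97 and 5.07, and, with control values under the floor, its fold is at least 1.66, which does not show 2-fold. Klf4, which acts early in fat cell formation, read 11.10, 10.95 and 8.77, and was 4.53-fold below Venus. Klf2, which holds back Pparg, read 9.43, 9.39 and 7.74. Ebf3, a relative of Ebf2, read 8.25, 8.09 and 6.57. Gata2, which restrains preadipocytes, read 7.67, 7.63 and 6.62, just past 2-fold. The lower genes thus held a factor that favours fat cell formation, Klf4, and factors that restrain it, Klf2 and Gata2.

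**Figure D4:**
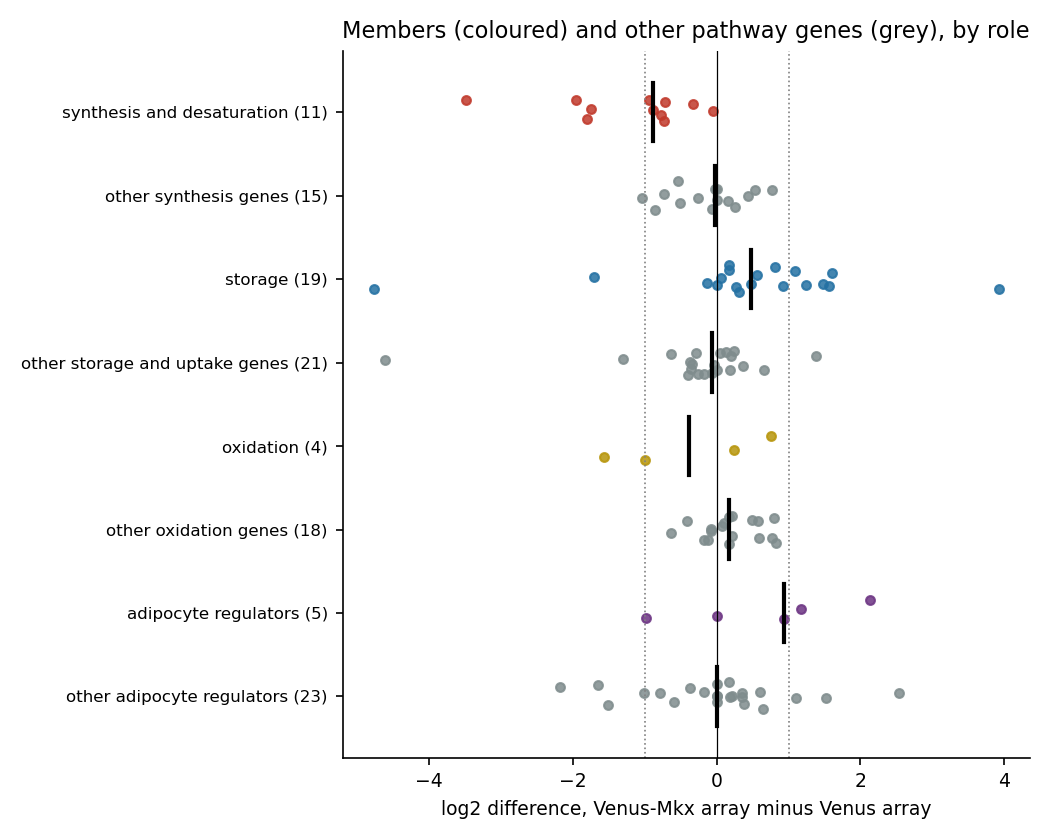
Log2 difference of the array labelled Venus-Mkx from Venus (horizontal axis) for measured members (coloured) and for other genes of the same role (grey), 1 array per condition, with the number of genes in brackets. Each point is a gene and each black bar a median. Medians of members run from −0.88 for synthesis to 0.93 for the 5 adipocyte regulators, whose median from C3H10T1/2 was 0.19. The medians of the grey lists lie between −0.069 and 0.18.

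Lpl, Fabp4 and Fabp5 are also made by macrophages, so markers of other cells were read beside them. Of 5 macrophage markers, Ptprc, Cd68 and Adgre1 were under the floor on all 3 arrays. Csf1r read 4.45, 5.39 and 6.62 and was higher, and Cd14 read 6.62, 6.99 and 6.49. The means of this list were 3.97, 4.22 and 4.32. Of 4 endothelial markers, Pecam1, Cdh5 and Kdr were under the floor and Tek was higher, with 4.53, 4.02 and 5.95. Of 4 epithelial markers, Epcam alone was measured, with 6.74, 7.03 and 7.60. The part of Csf1r or Tek expression in any difference above was not tested. The 7 housekeeping genes read had means of 11.53, 11.48 and 11.26, and none of them was 2-fold from both controls.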

How the data were processed

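Total RNA of C3H10T1/2, Venus and Venus-Mkx cultures was labelled with biotin (GeneChip 3′ IVT Express) and hybridized to Affymetrix mouse genome arrays, 1 per condition. The authors deposited log2 probe set values, which run from 1.44 to 14.00. The methods of the study name MAS 5.0 for the summary and the submitters' processing notes name RMA, with no version. The range is that of log2 values, and they were used as deposited. No detection calls were used. Signal over background sets the precision, and the number of arrays limits it.

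Of 45101 probe sets, 64 controls were left out and 34945 had 1 gene symbol, 932 several and 9160 none in the annotation table. Each of 18193 genes was represented by its probe set of highest mean. Levels of different probe sets are not compared. A gene was measured if its highest value reached the median of all values, and was called at 2-fold from both controls. Where a value was under the floor, "at least" gives the fold with that value set to the floor. The counting rule was tried on simulated data, with shifts past 2-fold placed only in genes well above the floor. That trial did not cover values near the floor or shifts close to 2-fold.

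The members and the gene lists were chosen with earlier results of these data known. All members are named. Of each other list, up to 5 measured genes with the largest difference from the nearer control are named. Pparg, Srebf1, Abhd5, Pmp2, Ebf2, Gata2 and the marker genes under the floor were named after their values were seen. Alternatives covered the floor, the probe sets per gene, the scale, the control and the fold threshold. Python 3.11.15, NumPy 2.4.6, pandas 2.3.3 and matplotlib 3.10.9 were used.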

Additional observations from a re-analysis of the deposited data

How the results depend on the processing

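With 1 array per condition no setting gives a replicate check, and no paired analysis was possible because no condition has a second array. The number of higher members stayed between 6 and 9, and that of lower members at 7 or 8, across the floors, the scales, the controls and the removal of probe sets marked _x_at and _s_at. Over these settings, 4.36% to 8.74% of all genes counted were higher and 3.29% to 6.80% lower. Over the mean of all probe sets, Gpam, Mgll, Lipe and Angptl4 were no longer higher, because probe sets under the floor enter their means. Of 37 members measured that way, 3 were higher (Lpl, Cebpb and Plin4) and 8 lower, against 5.66% and 4.52% of all genes. The same 3 genes were higher at 3-fold, against 3.75% of all measured genes, and 6 members were lower, against 2.50%. At 1.5-fold, 11 members were higher and 14 lower, against 12.0% and 11.6% of all measured genes. At 1.5-fold, 3 members were also apart between Venus and C3H10T1/2 (Lpin1, Dgat2 and Cebpa), against 0 at 2-fold. The 7 lower members were lower under each setting but 3-fold, where Cpt1a was lost. The median difference of the members ran from −0.098 with the floor at the 75th percentile to 0.15 against C3H10T1/2. No member past 2-fold from Venus changed sign. Setting values under the floor to the floor, chosen after seeing the data, left 7 higher and 7 lower members.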
